A study of Mus musculus with 10 samples.

Results

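The natriuretic peptide system and its second messenger cGMP were represented by 8 genes of the mouse uterus. They were the ligand gene *Nppc*, the protease gene *Corin*, the receptor genes *Npr1*, *Npr2* and *Npr3*, the cGMP-dependent protein kinase genes *Prkg1* and *Prkg2*, and the phosphodiesterase gene *Pde5a*. The genes were chosen by name from the 29268 genes of the table, as a family that was proposed with the difference between the genotypes in these same mice in view. Their differences between HSD17B1TG and WT are therefore given as a description and carry no p-value. RNA was sequenced from the uteri of 5 HSD17B1TG and 5 WT female mice on the FVB/N background aged 4 months. Each mouse gave 1 library, and the mice are numbered TG1 to TG5 (HSD17B1TG) and WT1 to WT5 (WT). HSD17B1TG mice carry a human *HSD17B1* cDNA, coding for an enzyme that converts estrone to estradiol, under the CMV-enhanced chicken beta actin promoter, which drives expression in all tissues. WT mice lack this transgene. Genotype and cycle state cannot be told apart in this design, since estrous cycles occur in WT alone, and the labels give no stage for any mouse.

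The libraries held 14817228 to 23271988 counts on genes. The transgene is human, and mouse *Hsd17b1*, at 0.992 FPKM ± 0.291 (SD, n = 5) in HSD17B1TG and 0.918 FPKM ± 0.375 in WT, does not check the genotype. FPKM are fragments scaled by the length of the gene and by the DESeq2 size factor of the library. Markers of smooth muscle, stroma and epithelium were present in all mice. TG1 and WT4 stood apart by their summed smooth muscle markers, at 7243 and 5721 FPKM against at most 3017 FPKM in the other mice. TG1 also had the lowest summed epithelial markers of the HSD17B1TG mice, at 617 FPKM against 1703 to 2817 FPKM, and WT4 the highest of the WT mice, at 1502 FPKM. Since uterine tissue of mixed cell types was sequenced, fewer cells of a type and less RNA per cell cannot be told apart.

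Natriuretic peptides are ligands of transmembrane receptors. NPR1 and NPR2 are guanylyl cyclases that make cGMP when bound, NPR1 by the atrial and B-type peptides and NPR2 by the C-type peptide, the product of *Nppc*. NPR3 lacks the cyclase and takes up the peptides from the extracellular space. Corin cuts the precursor of the atrial peptide. cGMP activates the kinases coded by *Prkg1* and *Prkg2*, relaxes smooth muscle and is split by phosphodiesterases, of which PDE5A is selective for cGMP. In the ovary, the C-type peptide acting on NPR2 keeps oocytes in meiotic arrest.

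The start regions of *Npr1* and *Npr2* are shown because the order of these 2 cyclase receptors differed between the genotypes. The windows come from RefSeq on GRCm38.p6 and hold 300 bases, 250 before the start site and 50 from it on. They run 5′ to 3′ on the strand of the gene, with the start site at base 251. Capitals mark the GC box GGGCGG or its complement CCGCCC. The window of *Npr1* lies at chr3:90465817-90466116 on the minus strand, and that of *Npr2* at chr4:43631685-43631984 on the plus strand.
Npr1: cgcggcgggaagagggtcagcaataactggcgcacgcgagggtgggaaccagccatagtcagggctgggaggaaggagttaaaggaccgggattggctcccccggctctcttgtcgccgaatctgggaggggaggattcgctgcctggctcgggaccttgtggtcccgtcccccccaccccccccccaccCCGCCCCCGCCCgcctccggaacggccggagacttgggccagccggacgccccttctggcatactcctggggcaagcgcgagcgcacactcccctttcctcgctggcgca
Npr2: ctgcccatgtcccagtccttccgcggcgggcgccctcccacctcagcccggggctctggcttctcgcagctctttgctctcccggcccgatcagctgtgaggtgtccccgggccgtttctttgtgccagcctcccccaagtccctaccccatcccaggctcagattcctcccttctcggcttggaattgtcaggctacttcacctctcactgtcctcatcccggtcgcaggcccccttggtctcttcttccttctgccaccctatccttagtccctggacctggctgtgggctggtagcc

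The *Npr1* window had a GC content of 69.7% and held 2 GC boxes side by side, which began 60 and 54 bases before the start site, and 1 CCAAT box. The *Npr2* window had a GC content of 64% and held no GC, CCAAT or TATA box (TATAAA). Among 32851 RefSeq windows of this length, 35.7% held a GC box, 37.4% a CCAAT box and 13.6% a TATA box on either strand, and the median GC content was 52.7%. Windows were found for 7 of the 8 genes, 8 windows in all, since *Prkg1* has 2 start sites. None of the 8 held the estrogen response element (GGTCA and TGACC with any 3 bases between), which 0.07% of all windows hold, or its single arm AGGTCA, held by 16.3%. The hormone response element (GNACA and TGTNC with any 3 bases between), held by 0.475% of all windows, and the CArG box, held by 1.63%, were also not among their letters. The single arm lies within some matches to the full element.

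Among the ligand genes, *Nppc* (ENSMUSG00000026241, chr1:86666291-86670571, minus strand) varied more within than between the genotypes. Its level was 42.2, 0.455, 0.298, 20.7 and 1.69 FPKM in WT1 to WT5, and 5.35, 6.34, 2.91, 0.417 and 0 FPKM in TG1 to TG5. WT1 and WT4 stood far above the other WT mice, and 4 of the 5 HSD17B1TG values lay within the WT range. The mean was 3.0 FPKM ± 2.85 (SD, n = 5) in HSD17B1TG and 13.1 FPKM ± 18.4 in WT, with a log2 fold change of -2.11 (SE 1.39), which was -0.97 without WT1 and -1.89 without WT4. It was -0.32 by voom (limma with sample quality weights). On the log2(FPKM + 1) scale, which understates differences of low genes, it was -0.84, and on the log2(FPKM + 0.1) scale -1.20. The medians stood in the other order, at 2.91 FPKM in HSD17B1TG and 1.69 FPKM in WT. In reads, *Nppc* ranged from 5 to 1082 in WT and from 0 to 115 in HSD17B1TG, where 3 reads correspond to 0.165 CPM in TG5, the mouse with none.

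*Corin* (ENSMUSG00000005220, chr5:72300025-72504473, minus strand) was near the limit of detection in all mice. It had 7, 1, 12, 7 and 25 reads in WT1 to WT5 and 6, 5, 3, 0 and 0 reads in TG1 to TG5, at most 0.226 FPKM. Too few reads covered it for the filter, and it was not tested. The genes of the other natriuretic peptides were also low and not tested. *Nppa*, for the atrial peptide, reached at most 0.677 FPKM and *Nppb*, for the B-type peptide, at most 0.0736 FPKM.

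*Npr1* (ENSMUSG00000027931, chr3:90450591-90465866, minus strand) was the member with the clearest separation of the genotypes. It measured 8.01, 6.35, 5.81, 12.1 and 8.96 FPKM in WT1 to WT5. Its values in TG1 to TG5 were 40.0, 34.2, 18.8, 54.4 and 40.6 FPKM. All HSD17B1TG mice were above all WT mice, and TG3, the lowest of them, was 1.55-fold above WT4, the highest WT mouse. The mean was 37.6 FPKM ± 12.9 (SD, n = 5) in HSD17B1TG and 8.25 FPKM ± 2.51 in WT, with a log2 fold change of 2.19 (SE 0.29), a 4.55-fold difference. It was 2.17 without TG1 and 2.36 without WT4. In WT, 64.2% of the 16993 genes tested had a lower mean FPKM, and in HSD17B1TG 91.8% had.

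*Npr2* (ENSMUSG00000028469, chr4:43631935-43651244, plus strand) was lower in 4 of the 5 HSD17B1TG mice than in any WT mouse. It measured 40.8, 26.4, 28.0, 31.1 and 35.1 FPKM in WT1 to WT5. The HSD17B1TG mice TG1 to TG5 measured 39.1, 20.1, 17.7, 20.2 and 9.36 FPKM. TG1 lay within the WT range and TG5 was the lowest mouse. The mean was 21.3 FPKM ± 10.9 (SD, n = 5) in HSD17B1TG and 32.3 FPKM ± 5.80 in WT. The log2 fold change was -0.60 (SE 0.31), which was -0.94 without TG1 and -0.41 without TG5. Under the call used here, which required an adjusted p under 0.05, more than a 2-fold difference and over 1 FPKM on average in 1 of the genotypes, *Npr2* was not called.

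*Npr3* (ENSMUSG00000022206, chr15:11839896-11907287, minus strand) was at a like level in 9 of the 10 mice. It measured 1.98, 1.79, 1.86, 3.36 and 1.06 FPKM in WT1 to WT5. In TG1 to TG5 it measured 22.1, 2.95, 2.07, 3.33 and 1.65 FPKM. The mean of 6.43 FPKM ± 8.81 (SD, n = 5) in HSD17B1TG against 2.01 FPKM ± 0.835 in WT rested on TG1. The log2 fold change was 1.67 (SE 0.71), and 0.32 without TG1. It was 0.87 by voom and 0.78 on the log2(FPKM + 1) scale.

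**Figure D1:**
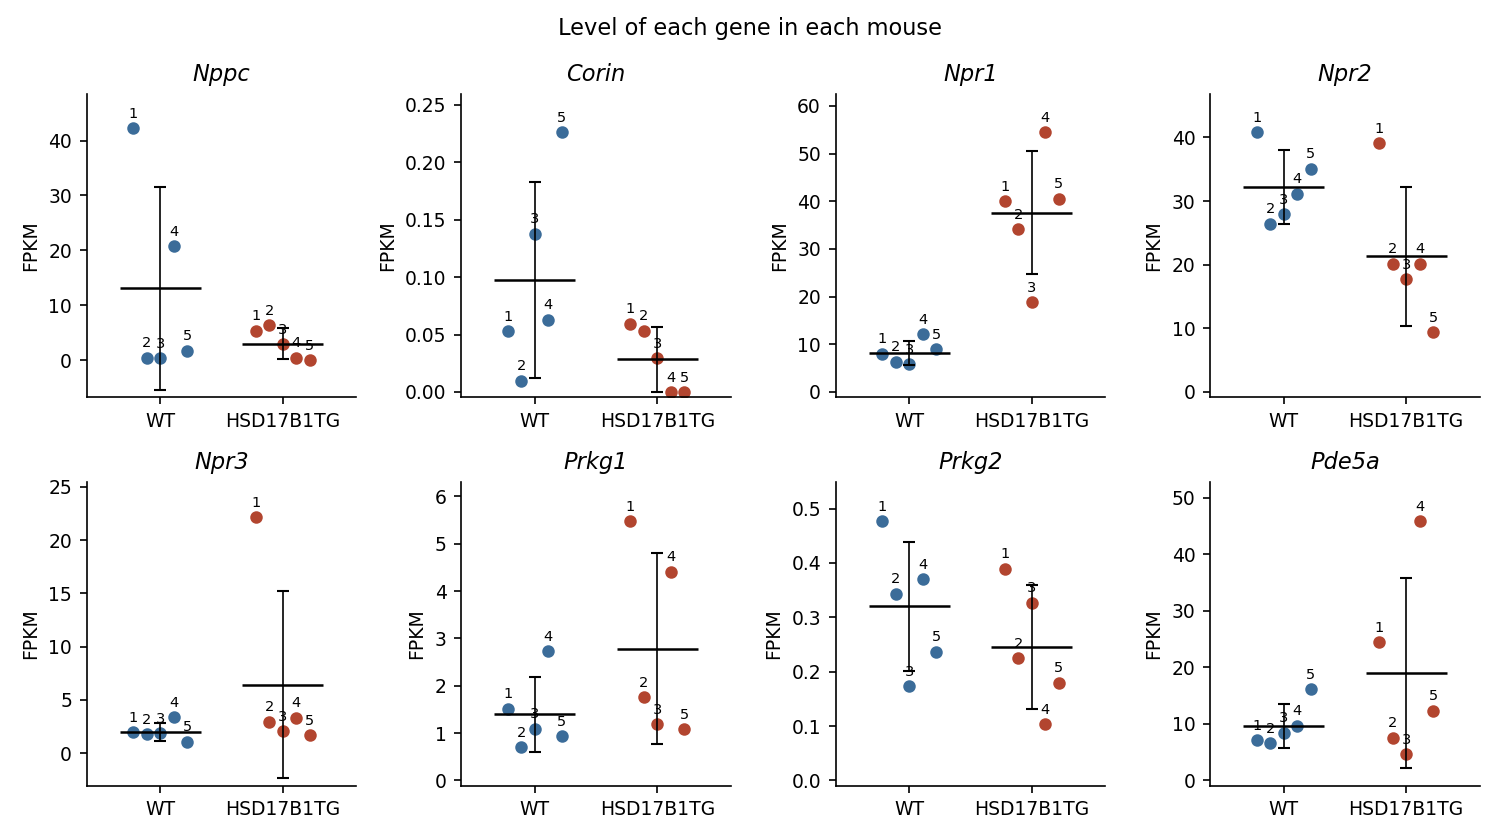
FPKM of the 8 genes in each mouse, with a linear axis for each gene. Points are mice numbered as in the text, horizontal lines are group means and bars are SD (n = 5). *Npr1* is the gene whose groups do not overlap, and 1 mouse, TG1, sets the mean of *Npr3* in HSD17B1TG.

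The order of the 2 cyclase receptors was *Npr2* above *Npr1* in every WT mouse and *Npr1* above *Npr2* in every HSD17B1TG mouse. The ratio of the FPKM of *Npr1* to that of *Npr2* was 0.196 to 0.390 in WT and 1.02 to 4.33 in HSD17B1TG. Of the summed FPKM of the 3 receptors, *Npr1* made up 15.8% to 26.0% in WT and 39.5% to 78.7% in HSD17B1TG, while *Npr2* made up 66.8% to 80.3% in WT and 18.1% to 45.9% in HSD17B1TG. The FPKM of *Npr1* and *Npr2* together overlapped between the genotypes, at 32.8 to 48.8 in WT and 36.5 to 79.1 in HSD17B1TG. The share of *Npr3* was 2.35% to 7.20% in WT and 3.20% to 5.35% in TG2 to TG5, but 21.9% in TG1.

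**Figure D2:**
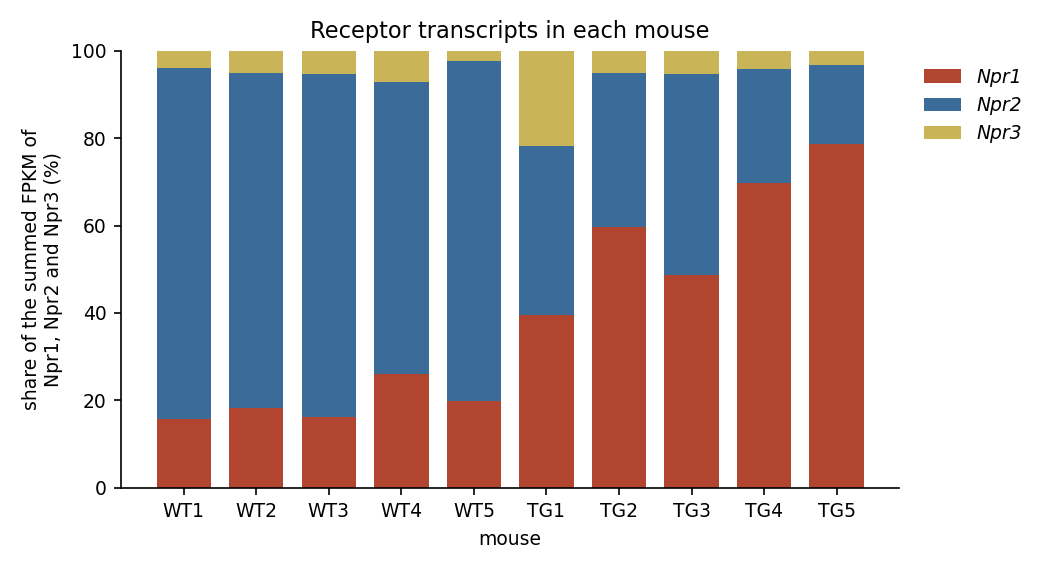
Share of *Npr1*, *Npr2* and *Npr3* in the summed FPKM of the 3 receptors (percent, stacked bars) in each of the 10 mice. *Npr2* is the largest part in every WT mouse and *Npr1* in every HSD17B1TG mouse, and *Npr3* reaches 21.9% in TG1.

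Of the kinases, *Prkg1* (ENSMUSG00000052920, chr19:30567551-31765033, minus strand), the form found in smooth muscle, measured 1.52, 0.709, 1.1, 2.73 and 0.933 FPKM in WT1 to WT5. Its values in TG1 to TG5 were 5.48, 1.76, 1.19, 4.41 and 1.09 FPKM. TG1 and TG4 were above all WT mice, and the other HSD17B1TG mice lay within the WT range. The mean was 2.79 FPKM ± 2.02 (SD, n = 5) in HSD17B1TG and 1.40 FPKM ± 0.800 in WT, with a log2 fold change of 1.00 (SE 0.53). It was 0.60 without TG1 and 1.38 without WT4, and 0.55 on the log2(FPKM + 1) scale.

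*Prkg2* (ENSMUSG00000029334, chr5:98929773-99037351, minus strand), the membrane-bound form, was low throughout. It measured 0.173 to 0.477 FPKM in WT, with a median of 0.343, and 0.104 to 0.390 FPKM in HSD17B1TG, with a median of 0.225. The log2 fold change was -0.39 (SE 0.41), and the groups overlapped. The FPKM of *Prkg1* exceeded that of *Prkg2* in every mouse, by 2.07-fold to 7.37-fold in WT and 3.65-fold to 42.4-fold in HSD17B1TG.

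*Pde5a* (ENSMUSG00000053965, chr3:122728947-122859374, plus strand) measured 7.16, 6.59, 8.48, 9.72 and 16.1 FPKM in WT1 to WT5. In TG1 to TG5 it measured 24.5, 7.56, 4.70, 45.9 and 12.3 FPKM. TG1 and TG4 were above all WT mice, as for *Prkg1*, while TG3 was below them. The mean was 19.0 FPKM ± 16.8 (SD, n = 5) in HSD17B1TG and 9.61 FPKM ± 3.83 in WT, with a log2 fold change of 0.98 (SE 0.55), which was 0.88 without TG1 and 0.35 without TG4. It was 0.36 by voom and 0.57 on the log2(FPKM + 1) scale. Of the summed FPKM of the listed phosphodiesterase genes whose products split cGMP, *Pde5a* made up 27.7% to 32.5% in WT and 23.1% to 74.2% in HSD17B1TG.

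**Figure D3:**
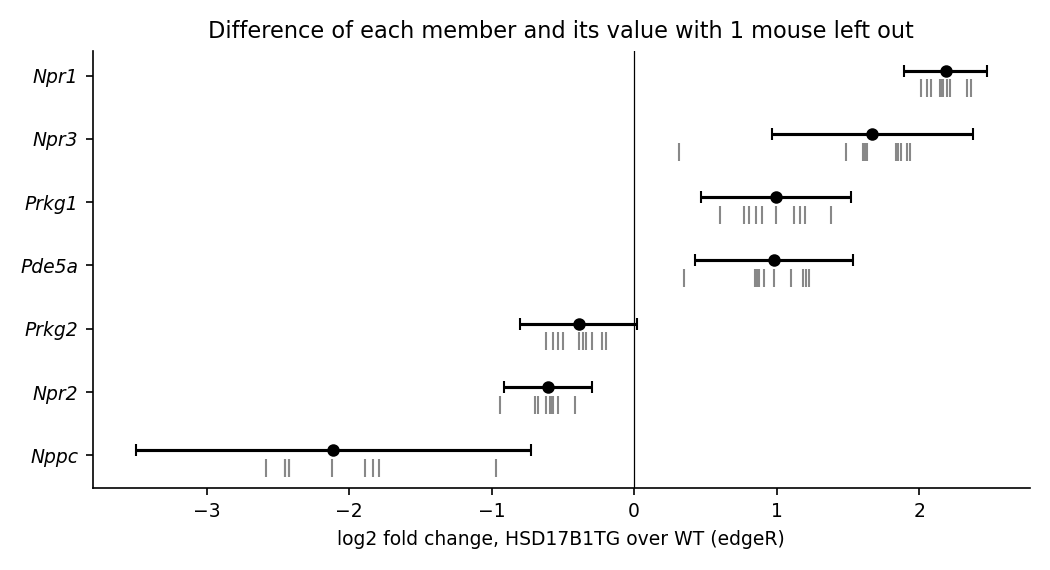
Log2 fold change of HSD17B1TG over WT (edgeR) for the 7 genes that passed the filter, as points with standard errors. Grey ticks are the values with 1 of the 10 mice left out. *Npr1* stays between 2.02 and 2.36, while *Npr3* is at 0.32 without TG1.

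Of the 7 members that passed the filter, 1, *Npr1*, was called, beside 4.24% of all genes tested (2.16% called higher and 2.08% called lower). *Npr1* was also the single member whose FPKM did not overlap between the groups, beside 6.69% of all genes tested. It was called as well by DESeq2 (8.93% of these genes called), by limma voom with sample quality weights (10.3% called) and with the adjusted p alone (6.16% called), and with each mouse left out. These shares are given beside a family proposed from this contrast, and nothing is read from them.

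By mean FPKM, the order in WT was *Npr2*, *Nppc*, *Pde5a*, *Npr1*, *Npr3*, *Prkg1*, *Prkg2* and *Corin*. In HSD17B1TG it was *Npr1*, *Npr2*, *Pde5a*, *Npr3*, *Nppc*, *Prkg1*, *Prkg2* and *Corin*. Neighbours in this order overlapped in range in WT except for *Npr1* above *Npr3* and *Prkg1* above *Prkg2*. In HSD17B1TG the exceptions were *Prkg1* above *Prkg2* and *Prkg2* above *Corin*. The second place of *Nppc* in WT rested on WT1 and WT4, and it was above *Pde5a* in 2 of the 5 WT mice.

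The other genes of the pathway were described from a list chosen with earlier results of these data known. Their adjusted p-values do not take this into account. The list held 56 genes, of which 53 were in the table and 36 passed the filter. By edgeR 0 were called higher and 2 lower, *Mme* and *Nos1*, beside 2.16% and 2.08% of all genes tested. The median log2 fold change was -0.08 (15 higher, 21 lower), against 0.00 over all genes tested. At an unadjusted p under 0.05, 5 of the 36 were higher and 6 lower, near the shares of all genes tested, of which 14.7% were higher and 11.4% lower at that threshold. DESeq2 called 1 higher and 4 lower (8.93% of all genes tested called either way), and voom 0 higher and 4 lower (10.3% of all genes tested called either way).

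*Mme* codes for neprilysin, a membrane protease that degrades natriuretic peptides. It measured 3.16, 11.6, 22.6, 1.96 and 10.7 FPKM in WT1 to WT5. In TG1 to TG5 it measured 1.19, 2.33, 0.520, 0.715 and 0.919 FPKM. TG2 overlapped with WT4, the lowest WT mouse, and the other HSD17B1TG mice were below all WT mice. The log2 fold change was -3.15 (SE 0.68; adjusted p = 0.0312, edgeR). The call was lost without TG2, TG4, TG5, WT2, WT3 or WT5 (adjusted p up to 0.0782, edgeR), where the log2 fold change was -3.59 to -2.62. Without WT4 it was -3.41 (adjusted p = 0.00803, edgeR).

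*Nos1*, a nitric oxide synthase, makes the gas that activates the soluble guanylyl cyclase. It measured 2.99, 2.19, 1.48, 0.890 and 1.11 FPKM in WT1 to WT5. The HSD17B1TG mice TG1 to TG5 measured 0.50, 0.593, 0.601, 0.617 and 0.547 FPKM. All HSD17B1TG mice were below all WT mice, with WT4 the lowest of the latter, and the log2 fold change was -1.60 (SE 0.32; adjusted p = 0.0256, edgeR). The call was lost without TG2, TG4, TG5, WT2 or WT3 (adjusted p up to 0.0644, edgeR), where the log2 fold change was -1.68 to -1.52. Without WT4 it was -1.77 (adjusted p = 0.0063, edgeR), and without TG1, the lowest mouse, -1.56 (adjusted p = 0.0262, edgeR). The other synthases, *Nos2* and *Nos3*, were not called.

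By role, the list held 4 tested genes of ligands and their processing (1 called, *Mme*), 5 of other cyclases and their peptides (0 called), 3 nitric oxide synthases (1 called, *Nos1*), 9 other phosphodiesterase genes (0 called), 3 of cGMP channels and export (0 called) and 12 substrates and partners of the kinases (0 called), all by edgeR. Of the phosphodiesterase genes tested, *Pde6d* and *Pde6g* code for partner proteins that do not split cGMP. Those outside the call with the smallest p in either direction were *Pde1c*, *Pde1b* and *Vasp* on the higher side and *Abcc4*, *Rgs2* and *Gucy1a2* on the lower side.

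*Pde1b*, a calcium-dependent phosphodiesterase, measured 0.520 to 0.873 FPKM in WT and 0.877 to 2.26 FPKM in HSD17B1TG. Its groups did not overlap, but TG3 and WT3 were nearly level, and the log2 fold change was 1.00 (SE 0.31; adjusted p = 0.0778, edgeR), and 0.90 without WT4, the lowest mouse. *Pde1c*, of the same family, stayed at or under 0.501 FPKM, with a log2 fold change of 1.94 (SE 0.60; adjusted p = 0.0738, edgeR), and 1.71 without WT4, again the lowest. *Vasp*, an actin regulator phosphorylated by the kinases, measured 80.1 to 91.1 FPKM in HSD17B1TG and 40.3 to 61.4 FPKM in WT apart from WT4, at 92.8 FPKM. Its log2 fold change was 0.59 (SE 0.21, adjusted p = 0.113, edgeR). Without WT4 it was 0.83 (adjusted p = 0.0083, edgeR), under the fold required for a call. With any other mouse left out it was 0.46 to 0.61 (adjusted p = 0.137 to 0.260, edgeR).

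*Abcc4*, a transporter that exports cyclic nucleotides, measured 8.34 to 11.2 FPKM in WT apart from WT4, at 3.88 FPKM, and 2.82 to 5.51 FPKM in HSD17B1TG. Its log2 fold change was -1.05 (SE 0.29; adjusted p = 0.0555, edgeR), and it was called without WT4 (-1.24, adjusted p = 0.00659, edgeR). Without TG1, the lowest mouse, it was -0.92 (adjusted p = 0.0651, edgeR). *Rgs2*, which restrains G protein signals and is activated by the kinase, had a log2 fold change of -1.95 (SE 0.62; adjusted p = 0.0783, edgeR), and -1.13 without WT3, which stood at 187 FPKM. *Gucy1a2*, a subunit of the soluble guanylyl cyclase, was at or under 0.301 FPKM, with a log2 fold change of -1.40 (SE 0.46; adjusted p = 0.0846, edgeR). The beta subunit *Gucy1b1* was at 1.45 to 6.24 FPKM in HSD17B1TG and 2.21 to 5.74 FPKM in WT, so that the ratio of *Npr1* to *Gucy1b1* was 6.40 to 16.4 in HSD17B1TG and 1.33 to 5.35 in WT.

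**Figure D4:**
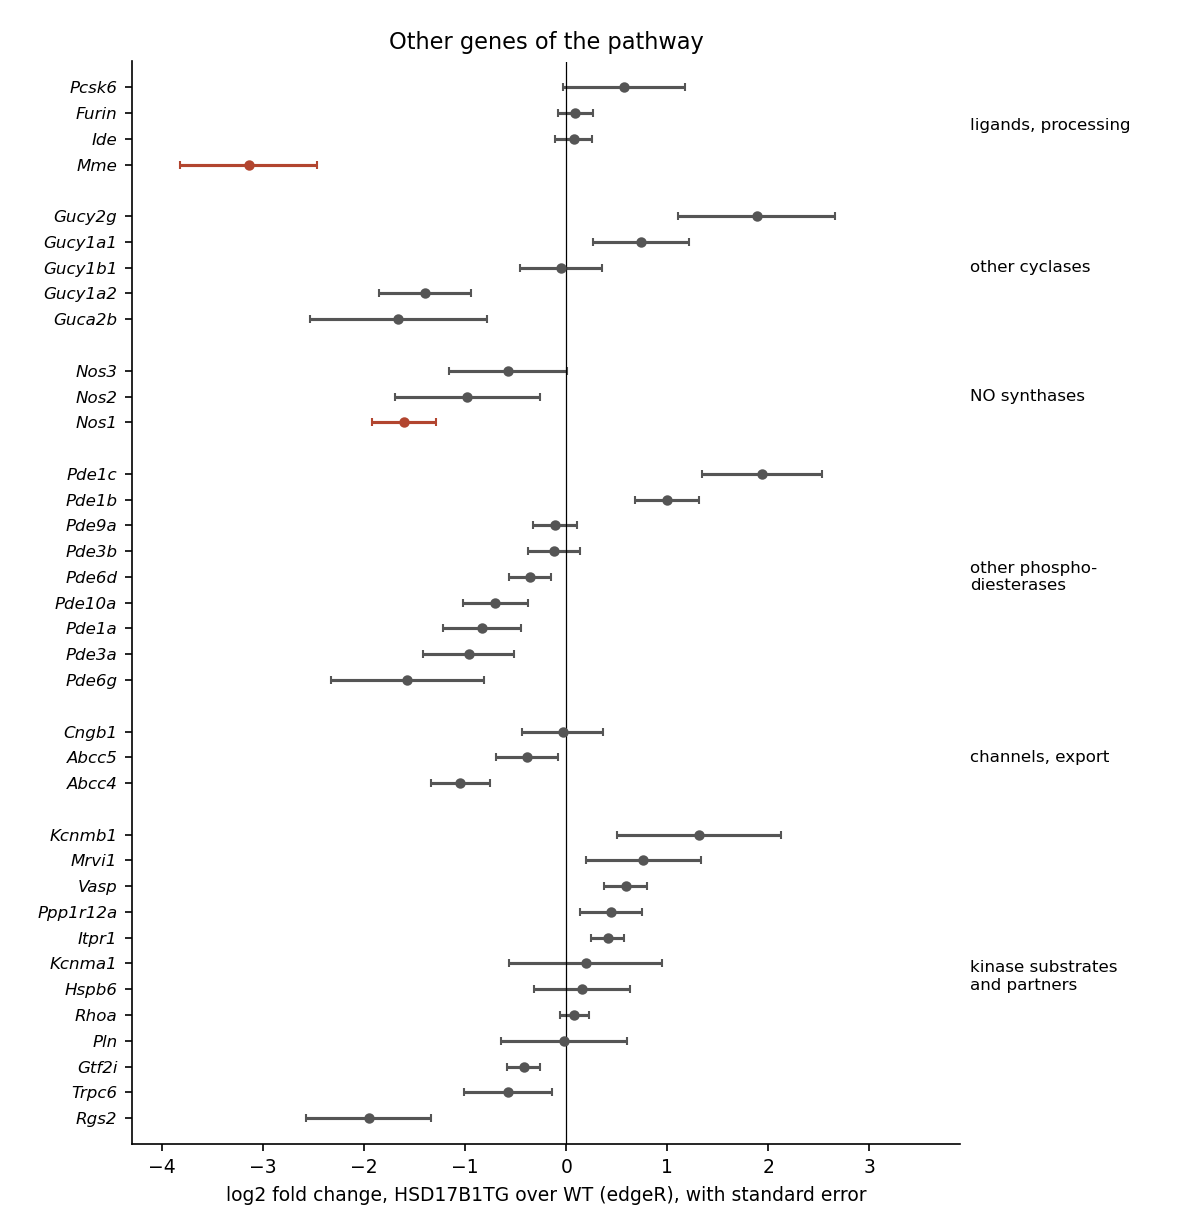
Log2 fold change of HSD17B1TG over WT (edgeR) with standard error for the 36 other pathway genes that passed the filter, grouped by role. The called genes, *Mme* at -3.15 and *Nos1* at -1.60, are in red, and no gene on the right of 0 was called.

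Markers of the cell types of the uterus also differed between mice, and their calls by edgeR stand beside 4.24% of all genes tested called either way. Smooth muscle markers were higher in HSD17B1TG for 8 of 8 genes, with 0 called, and their summed FPKM ranged from 846 to 7243 in HSD17B1TG and from 404 to 5721 in WT. *Prkg1* was highest in TG1, TG4 and WT4, the mice with the highest smooth muscle markers, and its share of the summed smooth muscle FPKM overlapped between the genotypes (0.0677% to 0.146% in HSD17B1TG and 0.0457% to 0.272% in WT). Stromal markers were lower for 6 of 7 genes, with 2 called, and summed to 632 to 1433 FPKM in TG2 to TG5, 2485 FPKM in TG1 and 1988 to 2721 FPKM in WT. *Npr2* had the same arrangement, with TG1 in the WT range and TG5 lowest.

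Epithelial markers were higher for 7 of 8 genes, with 0 called, and summed to 617 to 2817 FPKM in HSD17B1TG and 402 to 1502 FPKM in WT. As a share of that sum, *Npr1* overlapped between the genotypes, at 0.844% to 6.48% in HSD17B1TG and 0.808% to 2.09% in WT. Its shares of the stromal and mesothelial sums were not computed, so this overlap is given for the epithelial sum only. TG1, alone of the HSD17B1TG mice within the WT range of the epithelial sum, had 40.0 FPKM of *Npr1*. Mesothelial markers summed to 17.9 to 77.9 FPKM in HSD17B1TG and 17.8 to 40.5 FPKM in WT, with 3 of 4 genes higher and 0 called, and TG4 was highest in them as in *Npr1* and *Pde5a*. Markers of adipocytes summed to 38.2 FPKM in TG4 and at most 9.97 FPKM elsewhere.

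Endothelial markers were lower for 6 of 7 genes (18.9 to 78.1 FPKM in HSD17B1TG, 49.2 to 116 FPKM in WT) and pericyte markers for 5 of 6 (28.5 to 75.3 FPKM and 59.0 to 121 FPKM), with 0 called in both. Leucocyte markers were lower for 4 of 5 genes, with 1 called higher, and summed to 43.2 to 72.9 FPKM and 36.8 to 70.6 FPKM. Ovarian granulosa markers were lower for both of the 2 genes tested, with 1 called lower, and their sum did not overlap between the genotypes, at 9.91 to 15.4 FPKM in HSD17B1TG and 20.1 to 54.6 FPKM in WT. The defining granulosa marker *Amh* was under 1 FPKM in all mice and *Fshr* had no entry, so this sum rested mainly on *Foxl2* and *Inha*. Whether ovarian tissue was present was not tested. Oviduct markers summed to at most 5.97 FPKM. The part of these cell types in the differences of the members was not tested.

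**Figure D5:**
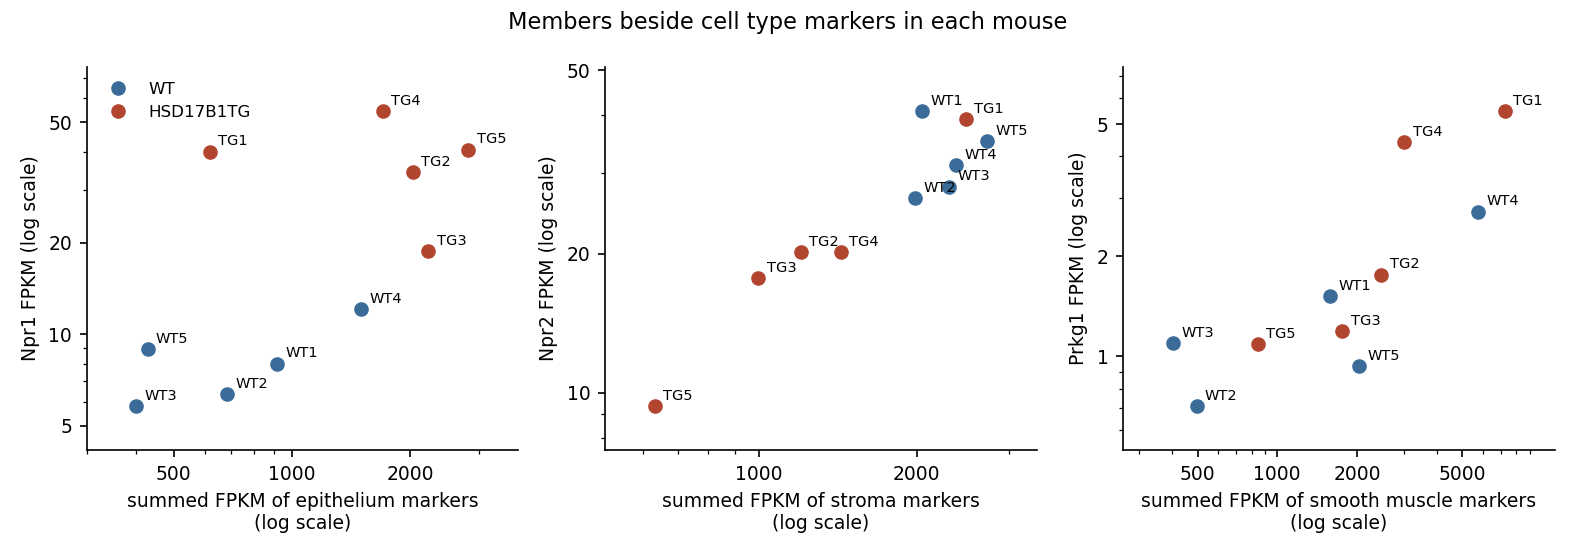
*Npr1*, *Npr2* and *Prkg1* (FPKM, log scale) against the summed FPKM of epithelial, stromal and smooth muscle markers (log scale), with 1 point per mouse. HSD17B1TG mice lie above WT mice in *Npr1*, but of them TG1 alone lies within the WT range of the epithelial sum. TG2 to TG5 lie low on both axes for *Npr2*, and TG1 lies high on both axes for *Prkg1*.

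Position in the genome was not used to choose the members. By start position, the nearest tested protein-coding genes before and after the 8 members were 16 genes, of which 1, *Cstf2t*, lies within *Prkg1*. Of the 16, edgeR called 0, as did DESeq2 and voom, and 3 were higher and 2 lower at an unadjusted p under 0.05, beside 26.1% of all genes tested. *Ints3* and *Ilf2*, which flank *Npr1*, had log2 fold changes of 0.23 (SE 0.17) and -0.48 (SE 0.14). *1810037I17Rik*, next to *Pde5a*, was at 85.6 FPKM ± 25.2 (SD, n = 5) in HSD17B1TG and 44.03 FPKM ± 7.29 in WT, with a log2 fold change of 0.96 (SE 0.20; adjusted p = 0.0279, edgeR), under the fold required for a call. With 1 mouse left out its adjusted p was 0.0121 to 0.0757 (edgeR). This gene was picked out once its values were known.

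The strand setting of the counting is not given in the sources used here, so reads of genes that overlap on opposite strands may be shared between them. *Gm16048*, antisense to *Npr1*, had 79 reads over the 10 mice beside 19364 of *Npr1*. *Gm12473*, antisense to *Npr2*, had 864 beside 24273 of *Npr2*. *Cstf2t*, which lies within *Prkg1* on the other strand, had 9815 beside 3019 of *Prkg1*, and its log2 fold change was 0.08 (SE 0.13).

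The protein-coding genes most like each member were found by Pearson's r of log2 CPM over the 10 mice after the mean of each group was subtracted, as a description without a test. All values came from the same libraries, and the highest of many genes is necessarily high over 10 mice. For *Npr1* they were *Deptor* (r = 0.97), *Syt17* (0.95) and *Insig2* (0.94), and *Deptor* was itself called higher. The genes most like *Npr2* were *Gpsm3* (r = 0.99), *Hspg2* and *Soga1* (both 0.98). *Npr3* was most like *Fn1* (0.97), *Hivep2* and *Rgs7* (both 0.96), where TG1 was again the extreme mouse of *Npr3*. *Nppc* was most like *Fbln2* (0.98), *Ptger1* (0.96) and *Trmt13* (0.95). The kinase *Prkg1* was most like *Reep1*, *Akap6* and *Rexo2* (each 0.96), and *Prkg2* was most like *mt-Atp8* (0.96), *Rxfp2* (0.93) and *Mrpl16* (0.92). *Pde5a* was most like *Yap1*, *Clip3* (both 0.98) and *Rab9* (0.97).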

How the data were processed

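Uterine RNA of 5 HSD17B1TG and 5 WT mice was sequenced by the authors as paired-end reads on a NovaSeq instrument, which they aligned with HISAT2 2.0.5 to GRCm38 (Ensembl annotation). Their deposited table gives raw counts per gene and mouse. Its deposited FPKM are scaled by gene length and by the mouse's DESeq2 size factor. How reads were counted, strand setting included, is not given in the sources used here. Columns and tables of the authors' own comparison (fold changes, p-values, calls and over-representation) were not used.

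Tests on the counts used edgeR 4.0.16 under R 4.3.3 (filterByExpr, TMM, quasi-likelihood test, Benjamini-Hochberg over the 16993 genes tested) without covariates, as the labels name no litter or batch. A call needed an adjusted p under 0.05, more than a 2-fold difference and over 1 FPKM on average in 1 of the genotypes, the thresholds of the study's methods. Fold changes of the members are from this fit, and log2 CPM used a prior count of 2. A count of 3 corresponds to 0.202 CPM in the shallowest library, WT3, for counting error only. Labels name separate mice, so p-values rest on the spread between mice. The edgeR test was also run on simulated counts, without the fold and FPKM criteria of the call, and its outcome is not given here.

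The members and lists were chosen with earlier results of these data known. Genes named were the members, the called genes of the pathway list, the 3 with the smallest p in each direction among those not called, the 3 most alike protein-coding genes per member, and neighbours where called or overlapping. *Hsd17b1*, *Nppa*, *Nppb*, *Gucy1b1*, *Nos2*, *Nos3*, *Pde6d*, *Pde6g*, *Ints3*, *Ilf2*, *1810037I17Rik*, *Amh*, *Fshr*, *Foxl2* and *Inha* were named beside these. The GC, CCAAT and TATA boxes were added after the files were seen. Coordinates are those of the table, and 7 of the 8 members have the same ones in GENCODE M21 (not *Prkg1*). The bases from the start site on of the *Npr1* and *Npr2* windows lie in a GENCODE transcript of the gene. Alternatives were DESeq2 1.42.0, limma 3.58.1 voom with sample quality weights, DESeq2's normalization (RLE), no filter, the adjusted p alone, log2(FPKM + 1), log2(FPKM + 0.1), and each mouse left out.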

Additional observations from a re-analysis of the deposited data

Results flagged for a closer look

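In 42 groups of 5 mice (levels of the 8 members, of *Mme* and of *Nos1*, and the sums, shares and ratios that involve members), the highest and the lowest mouse were compared with the nearest of the others by Dixon's criterion, which flags about 1 group in 20 by chance. It marked 5, and 3 of them share the gene *Npr3* and the mouse TG1. *Npr3* was 22.1 FPKM in TG1, and the nearest HSD17B1TG mouse, TG4, was at 3.33 FPKM. The ratio of *Npr3* to the sum of *Npr1* and *Npr2* was 0.280 in TG1, with the nearest HSD17B1TG mouse, TG3, at 0.0566. The share of *Npr3* in the FPKM of the 3 receptors was 21.9% in TG1 and 5.35% in TG3, again the nearest. TG1 was also the mouse with the highest summed smooth muscle markers (7243 FPKM) and had the highest stromal sum of the HSD17B1TG mice (2485 FPKM). Whether the level of *Npr3* in TG1 goes with its make-up of cells was not tested. The ratio of *Prkg1* to *Prkg2* was 42.4 in TG4, with TG1 nearest at 14.1, and *Prkg2*, the smaller term, had 9 reads in TG4. In WT, the share of *Npr2* in the FPKM of the 3 receptors was 66.8% in WT4, with WT2 nearest at 76.5%.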

How the results depend on the processing

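*Npr1* was the 1 member called by edgeR, and the 1 called under the alternatives run with a call (DESeq2, voom, RLE, no filter, adjusted p alone and each mouse left out). Of 112 alternative log2 fold changes of the 7 members, 111 lay within 1 SD between mice of the edgeR value, none changed sign, and *Npr3* without TG1 moved to 0.32. The count of 2 called genes of the pathway list became 5 with DESeq2 (*Abcc4*, *Pde1b* and *Rgs2* in addition) and 4 with voom (*Abcc4* and *Rgs2* in addition), and 0 to 3 with 1 mouse left out. It was 0 without TG2, TG4, TG5, WT2 or WT3, and 1 without WT5, and the cause was not tested. Of the neighbouring genes, 0 were called by edgeR, 1 with the adjusted p alone, which has no fold criterion, and 0 to 1 with 1 mouse left out (1 without TG1 or without WT4). No paired analysis was possible because the labels give no replicate numbers that the genotypes share. At this depth a member at the level of *Corin*, with 0 to 25 reads, could not be compared.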
